A study of Homo sapiens with 6 samples.

Results

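Runs of abutting eCLIP clusters are stretches of a strand in which 5 or more called clusters touch end to end. They were found in each FLAG-Angel1 list by sorting the autosomal clusters of each strand by start and joining every cluster whose start coincided with the end of the cluster before it. A joined group was kept when it held at least 5 clusters, each of which is called a row of the run. By this rule replicate 1 held 781 rows in 139 runs and replicate 2 held 243 rows in 44 runs, together 1024 of the 193672 autosomal clusters of both replicates. The 3 deposited lists together held 205520 clusters. The rows were chosen by the measured cluster positions of the list they came from, so the values of that same list are a description of the runs and were not tested.

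eCLIP identifies RNA touched by a protein in living cells. UV light links protein to RNA, the protein is immunoprecipitated with its RNA fragments, and the fragments are sequenced beside a size-matched input that carries the same cell's RNA without the pulldown. Angel1 is a human member of the CCR4 deadenylase family. Clusters are regions where reads pile up, and their ends depend on where coverage starts, stops and changes as well as on where the protein was bound.

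The series held 6 libraries from Flp-In T-REx HEK293, an established line of human embryonic kidney origin that carries a transgene at a single integration site under a tetracycline-inducible promoter. Cells received 5 ng/mL tetracycline for 24 h, and the labels give 400 mJ/cm2 of UV at 254 nm for all libraries. The study's methods also mention a sample kept from UV, which no label marks, so whether the control was crosslinked is not settled. The libraries were a FLAG immunoprecipitate (IP) and its input for FLAG-Angel1 replicates 1 and 2 and for 1 control. The control is labelled FLAG-only as a sample type but FLAG-Angel1 as a genotype, while the study's methods describe the parental line without a FLAG fusion, and nothing in the labels says whether the FLAG-Angel1 replicates came from separate cultures or from different clones. The inputs enter only through the values the authors set against them.

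Each cluster carries the log2 fold of IP over input reads, scaled by library size, and the −log10 of a P for that comparison. The −log10 P stands at 0 for clusters below their input and for some above it. In replicate 1, 54712 autosomal clusters stood at 0, while 31285 had a log2 fold of 0 or below. The highest −log10 P under the limit of 400 was 88.2 in replicate 1 and 86.9 in replicate 2, so that 400 marks a P too small to be resolved and not a measured size. Whole read counts were recovered from the pair of values for 95.8% of the rows of replicate 1 and 93.8% of those of replicate 2. The recovered counts put the libraries at about 3396000 IP and 722000 input reads in replicate 1, and 2545000 and 2814000 in replicate 2. The small input of replicate 1 gave its rows a median of 11 input reads, against 21 in replicate 2.

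Long runs were rare and short in length. Of the 139 runs of replicate 1, 93 had 5 rows, 28 had 6, 8 had 7, 8 had 8, and the longest had 12 and 16. The 44 runs of replicate 2 comprised 34 of 5 rows, 6 of 6, 2 of 7, 1 of 8 and 1 of 15. Just outside the rule lay 299 runs of 4 rows in replicate 1 and 126 in replicate 2. A run spanned a median of 240 nt in replicate 1 (interquartile range 157.5 to 363, longest 701) and 184 nt in replicate 2 (129 to 308.5, longest 1023). The rows within them were narrow, with a median of 39 and 38 nt against 60 and 51 nt over all autosomal clusters. Single rows were between 2 and 206 nt wide in replicate 1 and between 1 and 203 nt in replicate 2.

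Rows in long runs were a small part of the clusters that touched a neighbour. In replicate 1, 18.5% of autosomal clusters abutted another cluster and 4.24% of these lay in runs of 5 or more. The corresponding shares were 11.4% and 2.27% in replicate 2. The control list differed, since 54.7% of its 5332 autosomal clusters abutted another but only 0.377% of these lay in long runs, 11 rows in 2 runs. Its autosomal clusters had a median log2 fold of 5.28, and 92.9% were above input at a P of at most 0.05. Log2 folds of the control and of the replicates each refer to their own input, so their sizes were not compared. Both control runs were shorter than any run of the replicates. The first, chr10:95270394-95270437 on the minus strand, held 6 rows in 44 nt, each with the same 4 IP and 3 input reads and a log2 fold of 4.37 ± 1.10 (counting SE). The second, chr19:33793288-33793322 on the minus strand, held 5 rows in 35 nt with log2 folds of 9.73 to 11.02. In the control, 6 of the 9 pairs of neighbouring rows in long runs had identical log2 fold and P, against 1 of 642 pairs in replicate 1 and 0 of 199 in replicate 2. Nearly all rows of the FLAG-Angel1 runs therefore differed from their neighbours in log2 fold or P. Most of the identical control pairs lay in the chromosome 10 run, which rested on 4 IP reads. In runs of 2 to 4, identical pairs numbered 1044 of 1482 in the control, 492 of 9736 in replicate 1 and 364 of 5662 in replicate 2.

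The rows carried many reads. The median row had 165.5 IP reads in replicate 1 (interquartile range 87.75 to 393) and 115.5 in replicate 2 (77 to 182.75), against medians of 28 and 8 over the autosomal clusters whose reads were recovered. In replicate 1, counts were recovered for only 44.5% of all autosomal clusters, because a cluster with a −log10 P of 0 gives no count. Neighbouring rows can share reads that are longer than a row, so the counts of a run were not added up.

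The log2 fold of the rows lay above that of other clusters in both replicates. Its median was 1.73 in replicate 1 and 2.66 in replicate 2, compared with 0.35 and 1.73 for isolated clusters and 1.23 and 2.20 for clusters in runs of 2 to 4. The 4-row runs just outside the rule had medians of 1.59 and 2.37, close to the rows inside it. Isolated clusters with recovered counts had few reads, a median of 22 IP and 2 input reads in replicate 1 and 7 and 2 in replicate 2. Their median log2 fold in replicate 2, 1.73, was the most frequent value of that list, taken as 3 IP reads to 1 input read. The part of depth in the log2 fold was not tested. Rows enriched over input, at a P of at most 0.05 with a log2 fold above 0, numbered 613 of 781 in replicate 1 (78.5%, Wilson 95% interval 75.5 to 81.2), where 11.5% of all autosomal clusters were enriched. The count was 229 of 243 in replicate 2 (94.2%, 90.6 to 96.5), against 40.5% of all. At a P of 0.001 the shares were 57.6% against 4.1% in replicate 1 and 90.9% against 16.6% in replicate 2. The 4-row runs just outside the rule had shares of 63.6% and 92.7% at 0.05, and of 33.8% and 81.3% at 0.001. Depth moved with these shares, since a P of this kind falls as reads rise, and its part in them was not tested. Intervals cover counting error only. They take each row as a separate count although rows of a run can share reads, so they can be too narrow.

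More of the variation in log2 fold lay between runs than within them. All rows were enriched in 75 of 139 runs of replicate 1 and in 41 of 44 of replicate 2, and no row was enriched in 11 and 2. Differences between runs made up 76.8% of the variance of the log2 fold over rows in replicate 1 and 92.4% in replicate 2, and 57.5% and 72.6% without the runs below their input. Within a run, the highest and lowest row differed by a median of 1.23 log2 units in replicate 1 and 0.77 in replicate 2. The SD of the log2 fold within a run had a median of 0.49 and 0.31, beside a median counting SE of a row of 0.47 and 0.35. In 69 of the 136 runs with recovered counts in replicate 1 and 27 of 42 in replicate 2, the SD was below the counting SE. Neighbouring rows can share reads, which makes their values more alike than separate counts, so this comparison does not tell counting error from real differences between rows.

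No common direction was seen along the runs. The rank correlation of log2 fold with position from the 5′ to the 3′ row had a median of -0.1 in replicate 1 (interquartile range -0.7 to 0.57) and 0.2 in replicate 2 (-0.7 to 0.6), over 5 to 16 rows a run. It was above 0 in 62 runs and below 0 in 74 in replicate 1, and above 0 in 24 and below 0 in 20 in replicate 2. The log2 fold rose or fell at every step in 11 and 3 runs. Taking the last row minus the first, the median difference was -0.04 and 0.07. In replicate 1, the row with the highest log2 fold was the first in 31 runs, the last in 34 and inside the run in 74 (53.2%). In replicate 2 it was the first in 8, the last in 9 and inside in 27 (61.4%). Inner rows made up more than these shares, 64.4% and 63.8% of all rows. The −log10 P had no common direction either, with medians of -0.09 and -0.04 for its rank correlation with position. The row with the highest −log10 P lay inside 94 of 139 runs (67.6%) and 33 of 44 (75%), while 64.4% and 63.8% of all rows were inner ones. Inner rows had more IP reads, with a median of 184 against 140 in first and 114 in last rows of replicate 1, and 128 against 111 and 102 in replicate 2. They were also wider, with a median of 41 nt against 31 and 26 nt in replicate 1 and of 42 nt against 19 and 12.5 nt in replicate 2.

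**Figure D1:**
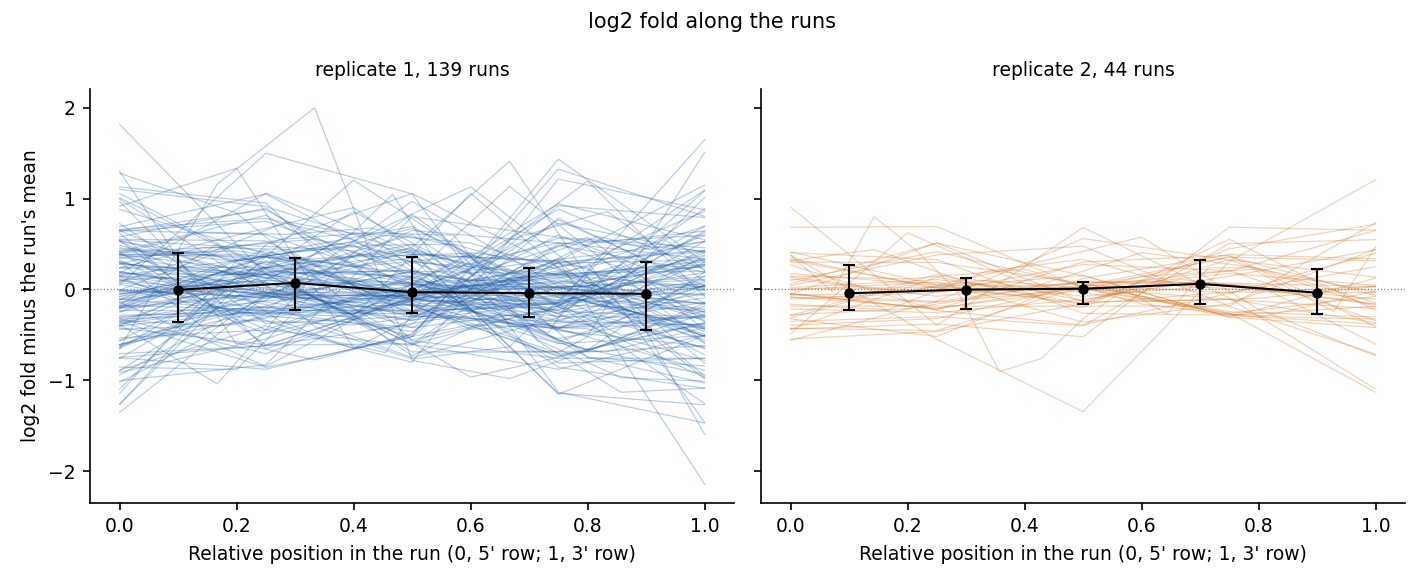
log2 fold of each row minus the mean of its run (vertical axis, log2 units) against the relative position of the row from the 5′ row (0) to the 3′ row (1), with 1 thin line per run, 139 in replicate 1 and 44 in replicate 2. Black points are medians over the rows of 5 equal parts of the run and bars the interquartile range; the medians stay between -0.05 and 0.07 in both panels, while single runs rise, fall or bend.

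The run with the most rows was chr1:245026918-245027511 on the minus strand in replicate 1, 16 rows over 594 nt. From its 5′ end the log2 fold was 0.65, 0.88, 1.10, 1.42, 1.69, 2.07, 2.31, 2.72, 2.06, 1.66, 1.30, 1.20, 1.84, 1.81, 2.22 and 1.88, with counting SEs between 0.16 and 0.34. The values rose over the first 8 rows, fell over the next 4 and were higher again in the last 4. IP reads stood at 510 in the first row, 590 in the eighth and 1013 in the tenth, while input reads stood at 69, 19 and 68. The first row and the highest thus differed in input reads far more than in IP reads. Replicate 2 had a run of 6 rows over the 5′ part of the same locus, with log2 folds of 2.37, 2.74, 2.61, 2.83, 2.91 and 2.66, and 3 further clusters towards the 3′ end at 1.84, 2.06 and 2.08. These 6 rows spanned a range of 0.54, against 2.07 over the 16 rows of replicate 1. The control had 1 cluster there, with a log2 fold of 1.51 ± 0.42 from 14 IP and 76 input reads.

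The longest run of replicate 2, chr16:2815767-2816789 on the plus strand, had 15 rows over 1023 nt. Its log2 folds were 3.44, 3.05, 3.87, 3.50, 3.05, 2.16, 2.31, 2.75, 3.07, 2.80, 3.31, 3.31, 3.06, 2.82 and 3.54, with counting SEs of 0.23 to 0.38. The lowest values lay in the sixth and seventh rows, between higher values on both sides. Replicate 1 covered the same stretch with a run of 3 rows at 2.05, 2.30 and 2.28, a separate cluster at 1.81 and a run of 5 rows at 1.63, 2.18, 1.92, 1.69 and 1.67. In replicate 1, a cluster inside the dip and another partly over it stood at 1.81 ± 0.45 and 1.63 ± 0.31. They were also below their neighbours at 2.28 ± 0.44 and 2.18 ± 0.37, by about as much as these counting SEs. The last rows of replicate 1, at 1.69 and 1.67, were about as low, where replicate 2 stood at 2.82 to 3.54. The control cluster at this locus was 41 nt wide and rested on 6 IP reads, with a log2 fold of 2.01 ± 0.66.

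Other long runs had other shapes. On the plus strand of chromosome 19, the 12 rows of chr19:49611139-49611623 in replicate 1 had log2 folds of 1.74, 1.92, 2.41, 2.03, 1.80, 1.67, 2.52, 2.46, 2.75, 2.96, 2.80 and 3.38, with counting SEs of 0.21 to 0.49. They rose, fell back by the sixth row and were highest in the last. The clusters of replicate 2 over this run stood at 2.47, 2.10, 2.85 and 2.07, in its own long run, and at 1.73 over the 3′ part, where replicate 1 was highest.

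At chr14:23790664-23791029 on the plus strand, the first 5 of 8 rows stood between 2.26 and 2.54 and the last 3 at 1.30, 0.73 and 0.78. Replicate 2 went the other way there, with 1.58, 1.01, 1.75 and, over the 3′ end, 2.17 ± 0.46. At chr10:17271275-17271587 on the plus strand, the 8 rows carried 297 to 1866 IP reads and stood at 2.07, 2.37, 2.73, 2.57, 1.90, 1.87, 2.02 and 0.40. The last row was lowest, at 0.40 ± 0.22, whereas the clusters of replicate 2 over this run stood at 1.57, 1.37, 2.01 and, last and highest, 2.27 ± 0.25. The 8 rows of chr20:57466439-57466919 on the plus strand stood at 2.61, 1.80, 1.95, 1.73, 1.99, 1.99, 2.25 and 1.54. Replicate 2 had 1.85, 1.01, 1.92 and, over the 3′ end, 2.91 ± 0.52 from 9 input reads. The last row was lowest in replicate 1 and the last cluster highest in replicate 2. At 1.54 ± 0.40, however, the last row of replicate 1 lay within its counting SE of the row at 1.73 ± 0.28.

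Most rows were covered by clusters of the other replicate. A cluster of replicate 2 overlapped 714 of 781 rows of replicate 1 (same strand, 1 nt or more) (91.4%, 89.2 to 93.2), against 52.5% of all autosomal clusters of replicate 1. A cluster of replicate 1 overlapped 224 of 243 rows of replicate 2 (92.2%, 88.1 to 94.9), against 54.5%. The shares were 46.5% and 50.6% for isolated clusters, 78% and 84.3% for runs of 2 to 4, and 89.5% and 95% for the 4-row runs just outside the rule. Rows overlapped by an enriched cluster of the other replicate numbered 672 (86%, against 29.6% of all) and 193 (79.4%, against 11%). For the 4-row runs these shares were 82.2% and 74.6%.

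The number of reads moved with this result. Among clusters with at least 100 recovered IP reads, a limit chosen after seeing the data, the share overlapped in the other replicate was 97.6% of 536 rows in replicate 1 (95.9 to 98.6), against 93.7% of 1234 isolated clusters and 95.5% of 2533 clusters in runs of 2 to 4. In replicate 2 it was 93.6% of 140 rows (88.2 to 96.6), against 87.5% of 216 isolated clusters and 95.8% of 660 in runs of 2 to 4. At this depth long runs stood above runs of 2 to 4 in replicate 1 and below them in replicate 2, and above isolated clusters in both. Rows of a run share reads and several can lie under the same cluster. The intervals count each row separately, so they cannot tell these classes apart. The distance from isolated clusters was thus far smaller than over all reads. Clusters at a −log10 P of 0 have no recovered count and were left out. In replicate 1 these were 51375 of 81414 isolated clusters but 23 of 781 rows. The limit therefore selected on enrichment as well as on depth, and the 2 were not told apart.

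**Figure D2:**
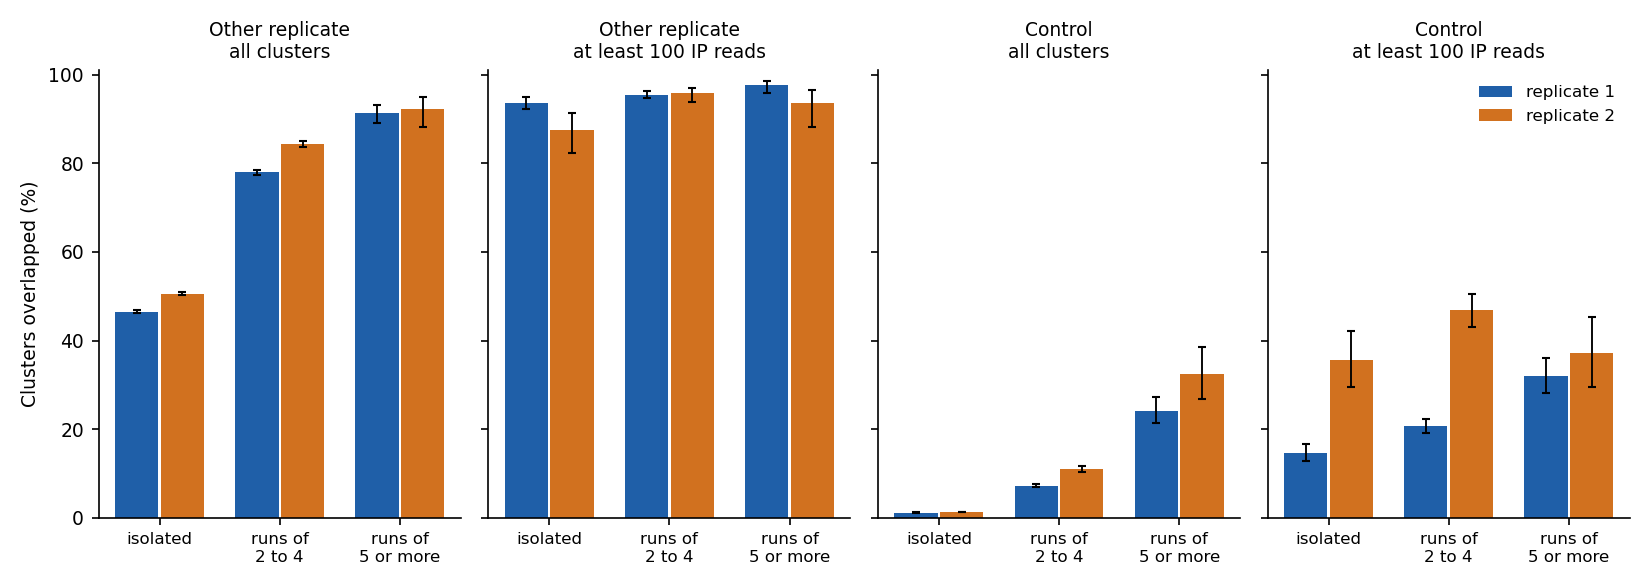
Share of clusters (vertical axis, %) overlapped by a cluster of the other replicate or of the control, for isolated clusters, runs of 2 to 4 and runs of 5 or more, over all autosomal clusters and over those with at least 100 recovered IP reads. Bars are replicate 1 (blue) and replicate 2 (orange), with Wilson 95% intervals. Isolated clusters stand at 46.5% and 50.6% and long runs at 91.4% and 92.2% over all clusters, but at 93.7% and 87.5% against 97.6% and 93.6% with 100 reads or more.

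Coverage of whole runs was high, but most runs were not cut into 5 or more abutting rows in the other replicate. All rows were overlapped in the other replicate in 99 of 139 and 32 of 44 runs, and clusters of the other replicate covered a median of 91.6% and 99.1% of a run's length. The other replicate also had a run of 5 or more in 14 of the 139 (10.1%) and 14 of the 44 (31.8%), and a run of 2 to 4 as its longest in 94 and 25. It had only isolated clusters at 29 and 5. Over all autosomal clusters, 0.782% in replicate 1 and 0.259% in replicate 2 lay in long runs. Replicate 2 had only 44 long runs, which limits the share for the runs of replicate 1. The 2 runs of replicate 1 with no row overlapped were chr16:2051007-2051168 on the minus strand, with a median log2 fold of 1.03, and chr21:47422198-47422315 on the plus strand, with 0.40. In both, the first row was the highest, at 2.55 and 2.72.

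Outside the runs below input, the log2 fold of a row was little related to that of the overlapping cluster in the other replicate. Of the 136 runs of replicate 1 with a median log2 fold above 0, 134 had a median above 0 in the overlapping clusters of replicate 2, and the other 2 were those with none. All 42 such runs of replicate 2 had a median above 0 in replicate 1. Of all overlapped autosomal clusters with a log2 fold above 0, 99% in replicate 1 and 80.3% in replicate 2 lay under a cluster above 0 in the other replicate, against 692 of 692 and 216 of 216 rows of long runs, so that the shared sign of the runs of replicate 1 was near the background. Across the 714 overlapped rows of replicate 1, Pearson's r between the log2 fold of the row and that of the overlapping cluster was 0.49 and Spearman's rho 0.16. Without the 3 runs below their input, r was 0.10 and rho 0.11 over 699 rows. In replicate 2, r was 0.73 and rho 0.21 over 224 rows, and 0.18 and 0.12 over the 216 rows outside runs below input. The larger r thus rested on a few depleted runs. Over all overlapped autosomal clusters, depleted ones included, r was 0.22 in each replicate. Rows of a run share reads and several can overlap the same cluster, so these are descriptions without a P. Replicate 2 was generally higher, by a median of 0.43 log2 units over the rows of replicate 1 and 0.97 over those of replicate 2, beside 1.10 over all overlapping autosomal clusters.

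The profile of log2 fold within a run showed little likeness between replicates. Where 5 or more rows were overlapped by clusters of differing log2 fold, the rank correlation between the row values and those of the other replicate had a median of 0.17 over 105 runs of replicate 1 and 0 over 31 of replicate 2. It was above 0 in 63 and below 0 in 36 of the 105, and above 0 in 15 and below 0 in 15 of the 31.

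**Figure D3:**
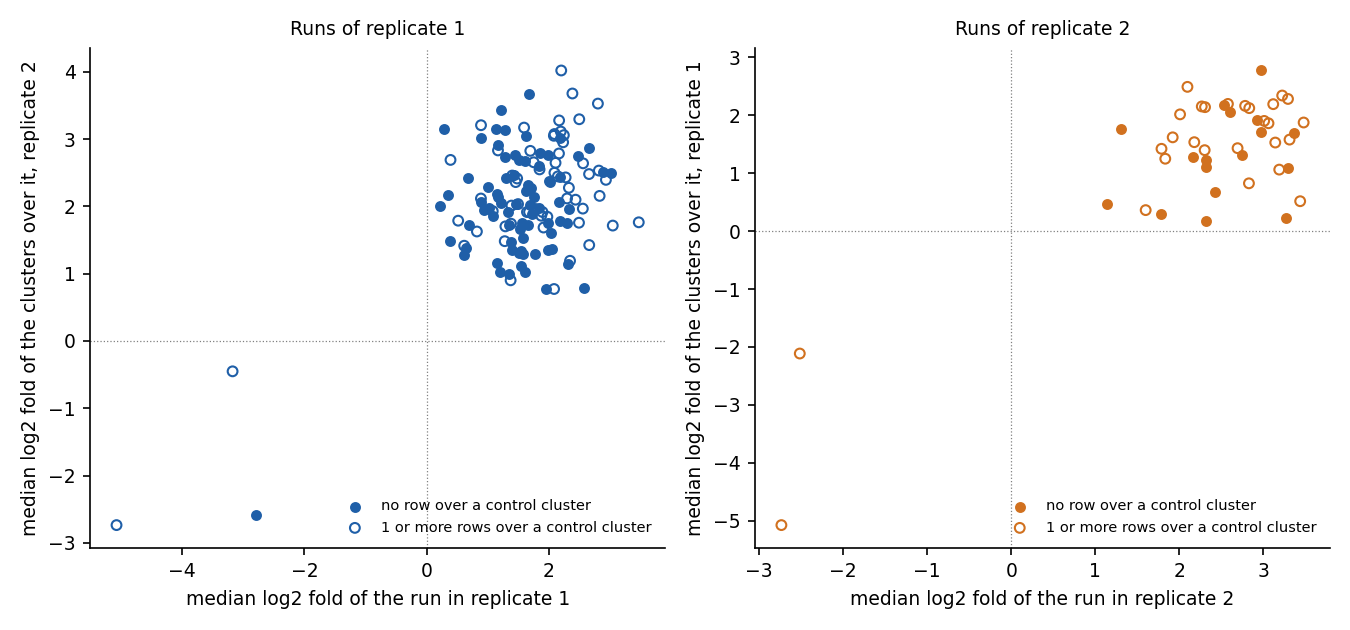
Median log2 fold of each run (horizontal axis) against the median log2 fold of the clusters of the other replicate over it (vertical axis), for the runs of replicate 1 (left, 137 of 139 runs) and replicate 2 (right, 44 runs). Open circles are runs with at least 1 row over a control cluster. The runs below input, 3 on the left and 2 on the right, stand apart in the lower left, and the others form a cloud above 0 on both axes.

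In contrast to the inner cuts, the outer ends of the runs often fell on the same base in both replicates. Among runs overlapped by the other replicate, the 5′ end coincided exactly with a cluster boundary of the same kind there in 24.8% and the 3′ end in 34.3% of 137 runs of replicate 1, and in 50% and 45.5% of the 44 runs of replicate 2. Both ends coincided in 17.5% (12.1 to 24.7) and 29.5% (18.2 to 44.2). For isolated clusters, both ends coincided in 0.383% and 0.387%, and for runs of 2 to 4 in 3.43% and 5.46%. With at least 100 IP reads in the highest row the shares for both ends were 20.2% of 114 and 34.3% of 35 long runs, 6.87% and 14.5% of runs of 2 to 4, and 0.952% and 0.529% of isolated clusters. The 4-row runs lay between, at 11.3% and 20.8%. Long runs thus stood above runs of 2 to 4 and isolated clusters in replicate 1 and replicate 2, but their intervals overlapped those of 4-row runs (13.8 to 28.5 against 7.43 to 16.8, and 20.8 to 50.8 against 11.7 to 34.3). For the 5′ end alone replicate 1 was nearly level at this depth, with 24.6% of long runs, 20.8% of runs of 2 to 4 and 21.5% of 4-row runs. Inner junctions, where a row meets the next, fell on any cluster boundary of the other replicate in 25 of 598 cases in replicate 1 (4.18%, 2.85 to 6.1) and 12 of 187 in replicate 2 (6.42%, 3.71 to 10.9). For runs of 2 to 4 the shares were lower, 2.51% of 7738 and 3.45% of 4841 junctions. The comparison of ends and junctions was chosen after seeing the data.

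**Figure D4:**
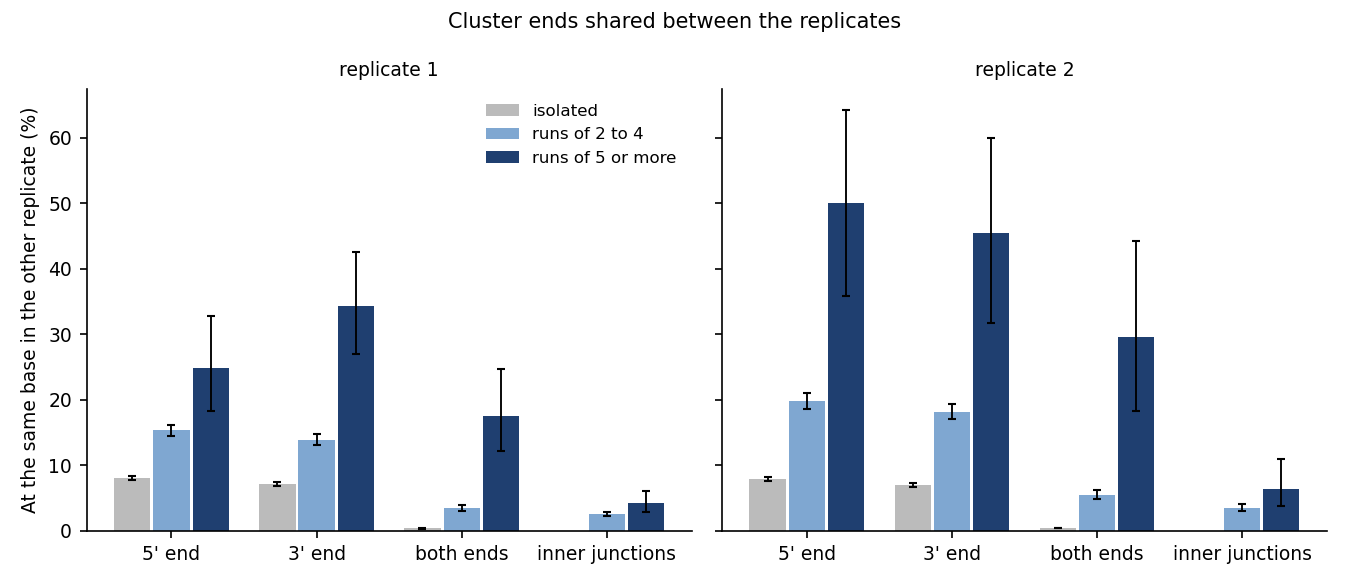
Share of cluster ends (vertical axis, %) that fell on the same base in the other replicate, for the 5′ end, the 3′ end and both ends of isolated clusters and runs, and for the inner junctions of runs, with Wilson 95% intervals. Left, replicate 1; right, replicate 2. Outer ends of runs of 5 or more reach 24.8% to 50%, while their inner junctions stay at 4.18% and 6.42%.

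At 14 loci both replicates had a long run. In 8 of them the 2 runs began and ended at the same base, namely chr1:45243286-45243461 (plus), chr1:205689629-205689781 (minus), chr7:55955549-55955606 (plus), chr14:103988638-103988842 (minus), chr16:89627635-89627776 (plus), chr16:89627986-89628159 (plus), chr17:37360330-37360440 (plus) and chr19:50001174-50001303 (plus). Over all 14 loci, 6 of 87 inner junctions of replicate 1 and 75 of replicate 2 were shared, at 5 loci. In 13 loci the median log2 fold was above 0 in both replicates, from 0.68 to 2.55 in replicate 1 and from 1.79 to 3.30 in replicate 2, and it was higher in replicate 2 at 11 of 14.

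Of the 2 loci with at least 7 rows in both replicates, chr14:103988638-103988842, on the minus strand, had 8 and 7 rows over 205 nt. Replicate 1 had log2 folds of 2.52, 2.59, 2.73, 2.80, 2.77, 1.62, 1.20 and 1.16 from the 5′ end, and replicate 2 had 1.78, 1.72, 2.14, 2.28, 1.98, 1.92 and 1.79. In replicate 1 the log2 fold fell by more than 1 unit after row 5, with counting SEs of 0.16 to 0.41, and in replicate 2 it stayed within 0.56. The first and last rows were 2 to 4 nt wide in both and held 162 to 917 IP reads. A control cluster of 123 nt inside the locus had a log2 fold of 1.57 ± 0.37.

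At the other, chr19:50001174-50001303 on the plus strand, 7 rows in each replicate gave flat profiles. The log2 fold was 2.16, 2.18, 2.13, 2.06, 2.10, 2.31 and 2.46 in replicate 1 and 2.74, 2.76, 2.91, 2.68, 2.92, 2.79 and 2.84 in replicate 2. All rows of replicate 2 were higher than those of replicate 1, but with counting SEs of 0.20 to 0.29 the closest rows of the replicates overlapped, and rows of a replicate did not stand apart. None of the 6 inner junctions was shared. A control cluster of 122 nt ended 1 nt beyond the run and stood at 1.60 ± 0.39.

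At chr16:89627986-89628159, on the plus strand, 6 rows of replicate 1 and 8 of replicate 2 covered 174 nt. Replicate 1 was flat, with log2 folds of 1.92, 2.11, 2.20, 2.14, 2.15 and 2.17 and counting SEs of 0.31 to 0.41. Replicate 2 went down from 2.58, 2.70, 2.37 and 2.31 to 2.22, 2.00, 1.95 and 1.93, with counting SEs of 0.31 to 0.40. This fall over the run, 0.76 between the highest and lowest row, had no counterpart in replicate 1.

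The 3 loci with the highest lower median were chr17:37360330-37360440, with medians of 2.19 and 3.12, chr1:45243286-45243461, with 2.16 and 3.30, and the chromosome 19 locus above, with 2.16 and 2.79. On chromosome 17, 5 rows over 111 nt had log2 folds of 2.45, 2.19, 2.01, 2.12 and 2.53 in replicate 1 and 3.32, 3.19, 2.99, 3.12 and 3.11 in replicate 2. This locus had 2 of its 4 inner junctions in common, the most of the 14. On chromosome 1, the 6 rows over 176 nt fell towards the 3′ end in replicate 1, from 2.42, 2.28 and 2.49 to 2.05, 1.58 and 1.00, and in replicate 2 the last row was lowest, at 2.63, against 3.28 to 3.58 in the first 5. The control had a single cluster of 176 nt there, from 1 nt before the start to 1 nt before the end of the runs, with a log2 fold of 2.50 ± 0.32 from 27 IP reads.

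A few runs lay below their input throughout. They were chr3:150905886-150905974, chr6:4428197-4428246 and chr7:55955549-55955606 in replicate 1, all on the plus strand, with median log2 folds of -3.18, -2.79 and -5.07, and chr7:55955549-55955606 and chr14:20811301-20811391 (minus strand) in replicate 2, with -2.74 and -2.52. All their rows had a −log10 P of 0. The overlapping clusters of the other replicate had medians of -0.45, -2.58 and -2.74 for the runs of replicate 1 and -5.07 and -2.11 for those of replicate 2. All of them were below input except over the chromosome 3 run, where 2 of the 5 rows lay under a cluster of replicate 2 at 0.26. They were 50 to 91 nt long. The chromosome 7 run was a long run in both replicates, with the same ends, and 4 control clusters lay on it, also in 1 abutting run.

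Rows of long runs overlapped control clusters more often than other clusters did. A control cluster lay on 189 of 781 rows of replicate 1 (24.2%, 21.3 to 27.3) and 79 of 243 of replicate 2 (32.5%, 26.9 to 38.6), against 2.41% and 2.47% of all autosomal clusters. The shares for an enriched control cluster were 17.3% and 18.5%, against 1.99% and 1.98%. In the 4-row runs a control cluster lay on 13% and 25% of clusters, and an enriched one on 9.11% and 12.9%. At least 1 row was overlapped in 61 of 139 and 27 of 44 runs, all rows in 9 and 3, and of the 14 loci with runs in both replicates 11 had a control cluster. The 3 without were chr1:205689629-205689781, chr10:17271275-17271685 and chr21:28216543-28216943. Reads moved with this share too, again only among clusters with recovered counts. With at least 100 IP reads it was 31.9% for the rows of replicate 1 (28.1 to 36), 20.6% for runs of 2 to 4 and 14.6% for isolated clusters, but 37.1% (29.6 to 45.4), 46.8% and 35.6% in replicate 2. The 4-row runs stood at 23.7% in replicate 1 and 55.7% in replicate 2. The rows of replicate 2 were therefore not above runs of 2 to 4 or 4-row runs at this depth, and lay near isolated clusters. The control was 1 library of few clusters, which limits how many rows it could overlap.

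The runs were unevenly spread over chromosomes, and differently in each replicate. Chromosome 19 held 36 of the 139 runs of replicate 1 (25.9%) beside 8.33% of its autosomal clusters, but 4 of the 44 runs of replicate 2 (9.09%) beside 7.89%. Chromosome 16 held 8 of 44 runs in replicate 2 (18.2%, beside 5.6% of clusters) and 10 of 139 in replicate 1 (7.19%, beside 5.64%). Some runs lay close together, though closeness was not counted for other clusters. Within 10000 nt on the same strand, 27 runs of replicate 1 and 14 of replicate 2 had another run, among them 3 runs between chr19:49994036-50001303 in replicate 1 and 3 runs between chr16:2807473-2816789 in replicate 2. A cluster on the opposite strand overlapped 19 of 781 rows in replicate 1 (2.43%, against 0.533% of all) and 0 of 243 in replicate 2 (against 0.196%), which allows a share of up to 1.23% (3 counts of 243; the Wilson upper limit is 1.56%).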

How the data were processed

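Clusters came from the 3 lists of the FLAG-Angel1 and control IPs. The authors mapped reads to GRCh37 (hg19), called clusters per library and set each against its input; the submitters' processing notes name cutadapt, STAR, UMI-tools and SAMtools, without versions. Deposited for each cluster are the enrichment of IP reads relative to input on a log2 scale and a −log10 P, limited to 400. Coordinates are counted from 1.

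Runs, overlaps (at least 1 nt, same strand) and shares with Wilson 95% intervals were computed in Python 3.11.15 (NumPy 2.4.6, pandas 2.3.3, SciPy 1.17.1) on the 22 autosomes. Read counts were recovered by writing each log2 fold as a ratio of whole numbers, with the most frequent value as 3 to 1, and keeping the only multiple whose Fisher or Yates-corrected chi-square P matched within 0.02 or 0.5%. An input of 1 read may be a minimum set by the pipeline. The counting SE of a log2 fold is that of the recovered counts, and rows at the limit or at a −log10 P of 0 have none. Samples were grouped by their titles. No test was made, since each group has 2 IP libraries or 1 and rows are not replicates. The steps were tested on simulated lists and counts.

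The members and lists were chosen with earlier results of these data known. Named by rule were the 5 runs with the most rows per replicate, the 5 loci with runs in both replicates and the most rows, and the 3 with the highest lower median. The runs below input and those not overlapped were named after their values were seen. The read recovery, the limit of 100 IP reads, the comparison of ends and the correlations without runs below input were also chosen after seeing the data. Genes, annotation, GC content and sequences were not analysed here, as no GRCh37 annotation was used. Alternatives covered the run rule, strand, chromosomes, thresholds, overlap, cluster width and weighting.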

Additional observations from a re-analysis of the deposited data

Results flagged for a closer look

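Chromosomes outside the autosomes were not used above, and runs of 5 or more abutting clusters were found there in both replicates and not in the control. Chromosome X held 12 runs in replicate 1, with a median log2 fold of 1.62 over 66 rows, and 7 in replicate 2, with 1.77 over 48 rows. The mitochondrial chromosome held 4 runs in replicate 1 (25 rows, median log2 fold 1.22) and 5 in replicate 2 (35 rows, 0.48). These lay among 76 and 105 clusters of that chromosome. The control had 347 clusters on chromosome X and 36 on the mitochondrial chromosome and 0 runs on either.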

How the results depend on the processing

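Of 130 alternative values of 23 results, 73 stayed within the counting interval, the spread between the replicates or 1.5 times the count, and 57 moved. Values below are for replicate 1 and then replicate 2 where both are given. The number of runs was 1673 and 785 for runs of 3 or more and 10 and 2 for runs of 8 or more, with 5682 and 2592 or 92 and 23 rows, and the median span was 163 nt (replicate 1) for 3 or more and 309.5 and 598.5 nt for 8 or more. Without chromosome 19, 103 and 40 runs were left. Loci with a run in both replicates numbered 332 for runs of 3 or more and 0 for 8 or more, and 44 to 139 when a run in only 1 replicate was required.

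The share overlapped by the other replicate was 86.7% (replicate 1) for runs of 3 or more, 97.8% and 95.7% for 8 or more, 84.9% (replicate 1) with at least 0.5 of the cluster covered, 94.6% (replicate 1) for clusters of at least 50 nt and 97.6% (replicate 1) with 100 IP reads. Among other clusters of at least 50 nt it was 58.6% and 66.6%, and among other clusters with 100 reads 94.9% and 93.7%, against 97.6% and 93.6% of the rows. The share overlapped by an enriched cluster was 77.4% and 64.4% for 3 or more, 97.8% and 95.7% for 8 or more, 80.9% (replicate 1) with at least 0.5 covered, 88.8% and 85.2% at 50 nt, 75.8% and 65.4% at a threshold of 0.001, and 97.2% and 89.3% with 100 reads. For the control the share was 11.6% and 20.3% for 3 or more, 43.5% and 8.70% for 8 or more, 17.9% and 25.9% with at least 0.5 covered, 20.2% (replicate 1) at 50 nt, 31.9% (replicate 1) with 100 reads and 38.7% (replicate 2) on all chromosomes; with 100 reads, other clusters of replicate 2 stood at 44.1%, above the rows at 37.1%. The enriched share was 57.6% at 0.001, 73.8% with a log2 fold of at least 1 and 54.8% for 3 or more in replicate 1, and 97.8% and 100% for 8 or more.

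The median rank correlation along the run was -0.33 and -0.51 for runs of 8 or more, over 10 and 2 runs, and -0.24 in genomic order in replicate 2. The SD within a run was 0.49 and 0.31 where the range was 1.23 and 0.77, and the range was 1.62 and 1.24 for 8 or more. Both outer ends were shared by 7.32% and 12.0% of runs of 3 or more and by 10% and 50% of the 10 and 2 runs of 8 or more. The settings with 100 reads, runs above input, without chromosome 19 and for the ends were chosen after seeing the data. Annotation and GC content were not run, as no GRCh37 genome was used. No paired analysis was possible because no test was made and the replicate numbers join an IP only to its own input. Replicate 1 had few input reads, which limits the precision of its log2 folds, and the cause of the changes above was not tested.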
